A study of Drosophila melanogaster with 9 samples.

Results

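Foxo overexpression in muscle was compared with control muscle in adult male Drosophila melanogaster, on 3 arrays of Foxo flies and 3 of control flies out of the 9 arrays of the study. The comparison covers 11982 genes, each read from the single-gene probe set with the highest mean signal over the 9 arrays, out of 18952 probe sets on the array. Per the labels, the RNA came from skeletal muscle and each group drew on at least 15 male flies, with 3 independent biological replicates. The flies had been collected within 24 hours of eclosion and reared at 25 °C, 20 to a vial. The Foxo group carried a UAS-foxo transgene, the other overexpression group a UAS-Mnt transgene, and the control is labelled only as control. The labels do not name the muscle driver, the genotype of the control or the age at dissection. Signals are Affymetrix values on the log2 scale, so that a difference of 1 is a doubling, and values of different probe sets are not amounts that can be set against each other.

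Foxo is the fly's single FOXO forkhead transcription factor. Insulin acts through Akt, which phosphorylates Foxo and holds it in the cytoplasm, and Foxo enters the nucleus when insulin signalling is low. Its known targets in flies include the insulin receptor, lipases and secreted factors, and Foxo in muscle is known for its links to protein quality control and to signals from muscle to other tissues.

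The foxo transcript itself was read first. It lay at 9.42, 9.50 and 9.05 in the control arrays and at 11.95, 9.52 and 10.22 in the Foxo arrays. The first Foxo array was far above every control and the third moderately so, whereas the array labelled Foxo 2 lay only 0.02 above the highest control. The Mnt arrays lay at 9.52, 9.19 and 9.34, so that the array labelled Foxo 2 was close to the first Mnt array. The log2 difference between Foxo and control was 1.24 ± 0.52 (limma's moderated SE, 3 arrays against 3), with an adjusted p of 0.279. With the first Foxo array as the only Foxo array, the difference was 2.63 and the adjusted p 0.0326, a setting chosen after the values were seen. Every result below includes the array labelled Foxo 2 unless stated otherwise, and the calls that end without it are named after the called genes.

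The muscle identity of the samples was checked with 26 measured sarcomere genes, whose mean signal ran from 12.24 to 12.69 over the 9 arrays. Signal of male reproductive tissue was also present and uneven. The mean of 25 measured testis markers was 7.0, 6.15 and 5.19 in the control arrays and 6.95, 7.85 and 7.46 in the Foxo arrays, which overlap (difference 1.31, exact permutation test over 20 groupings, two-sided p = 0.2, where 0.1 is the smallest p possible). Accessory gland markers averaged 4.05, 3.90 and 9.23 in the Foxo arrays, so that only the third Foxo array carried them at high signal. In control they averaged 5.32, 4.07 and 4.39, and the median difference of 17 such markers, 1.37, lay anywhere from -0.60 to 2.66 when 1 array was left out. The first principal component of the 9 arrays held 61.5% of the variance and followed the testis mean with a correlation of -0.98, a description over arrays that differ in group as well. The part of these tissues in the results was not tested beyond the values given beside each one. The codes in the sample descriptions run in an unbroken block for each group, so an effect of that order and one of the group cannot be told apart.

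**Figure D1:**
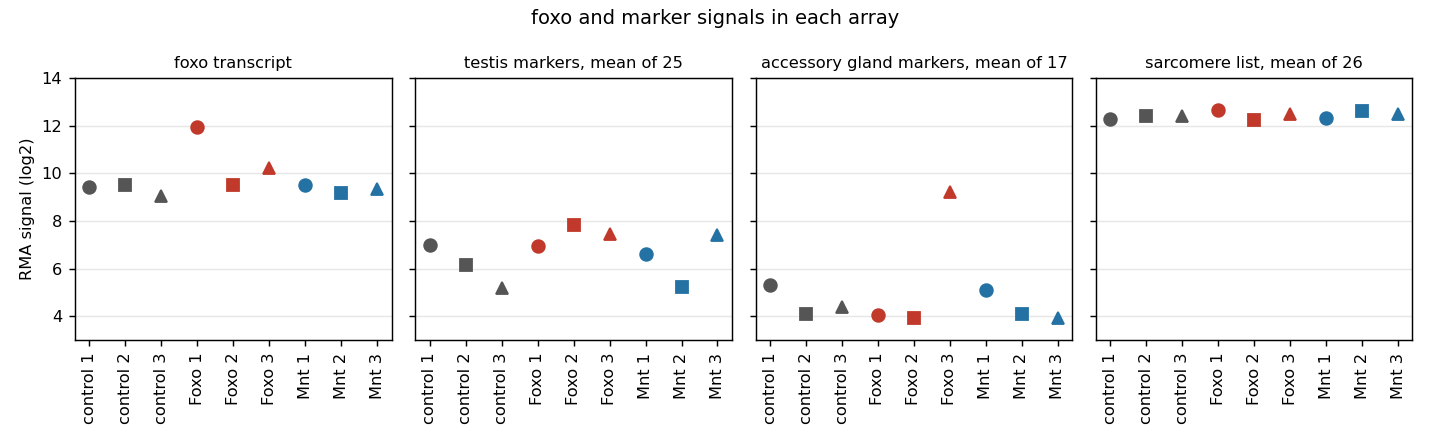
Log2 signal of foxo and mean log2 signal of marker lists in each of the 9 arrays, by group, with 1 point per array. The foxo signal of the array labelled Foxo 2, 9.52, sits beside the control arrays, and the testis means of Foxo and control overlap.

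Across all genes, 12 passed an adjusted p of 0.05 (limma, Benjamini-Hochberg), which is 0.10% of those tested, with 2 that rose and 10 that fell. A further measure, an unadjusted p under 0.05, was met by 2136 genes, or 17.8%, of which 996 were higher and 1140 lower. The 3 Foxo arrays and the 3 control arrays did not overlap for 2830 genes, or 23.6%. Of the genes tested, 8.24% had all Foxo arrays above all controls and 15.4% had all of them below. Higher genes thus made up 34.9% of the genes without overlap, and 18.7% when each array was centred on its median and 24.4% after a further quantile normalization. Counting every gene whatever its p, 62.6% were lower. The median difference over all genes was -0.06, and centring moved it to -0.16. Medians and counts of gene groups below are to be read against these values.

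A difference above 1 was found for 692 genes, of which 2 passed the test, whereas of the 12 genes below -1, 4 passed. Among those 692 genes, 78.9% followed the testis mean within groups with a correlation above 0.7, against 9.72% of all genes tested.

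**Figure D2:**
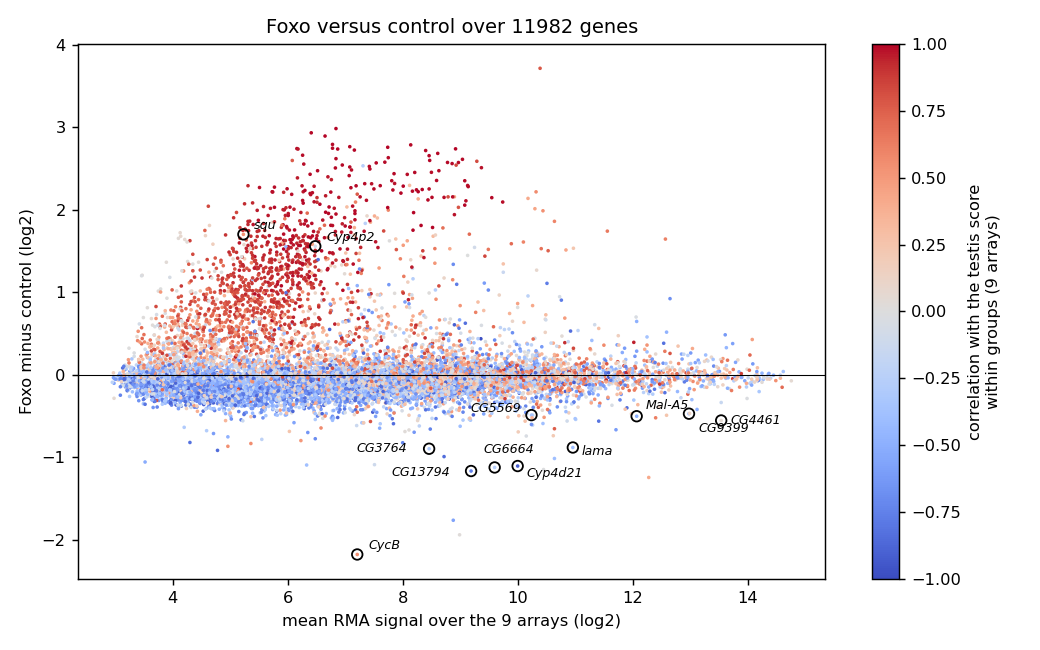
Log2 difference between Foxo and control for 11982 genes against mean log2 signal over the 9 arrays, with the 12 genes past the adjusted p of 0.05 marked and named. Colour gives the correlation with the testis mean within groups. Differences above 1 crowd at low to middle signal, and 8 of the 10 called falls have a mean signal above 9.

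The largest called fall was that of CycB, the mitotic cyclin that partners Cdk1. Its signal was 7.90, 7.81 and 7.91 in control and 5.28, 6.04 and 5.77 in Foxo, and the Foxo arrays lay far below all others. The difference was -2.18 ± 0.19 (adjusted p = 0.00862). The Mnt arrays, at 8.22, 7.82 and 8.12, lay near the controls, and Foxo lay below Mnt by a log2 value of -2.35 (adjusted p = 0.0141). CycB kept its call without each single Foxo array in turn. Of 21 measured genes of a mitotic cell cycle list, CycB was the only one that passed, 3 were higher and 2 lower at an unadjusted p under 0.05, and the median was 0.07, or -0.03 with centred arrays. Among the higher ones were CycB3, another B-type cyclin, at 0.42 ± 0.10, and aurB, the Aurora kinase of the chromosomal passenger complex, at 0.39 ± 0.09, both at low signal and not past the adjusted threshold.

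Both called rises, squ and Cyp4p2, started from low signal. The gene squ encodes a component of the piRNA pathway, which silences transposons in the germ line. It read 4.56, 4.70 and 4.58 in control and 6.28, 6.48 and 6.19 in Foxo, a clear gap at low signal (1.70 ± 0.14, adjusted p = 0.00862). The array labelled Foxo 2 was the highest of the 3. In Mnt arrays squ stayed at 4.63, 4.64 and 5.03. Of 23 measured piRNA genes squ was the only one called, and with it included 11 were higher and 12 lower, with a median of -0.01. The other rise, Cyp4p2, is a cytochrome P450, one of the haem monooxygenases that oxidise lipids and foreign compounds. It was at 5.94, 6.15 and 5.85 in control and 7.76, 7.76 and 7.10 in Foxo, with Mnt at 5.99, 5.99 and 5.82 (1.56 ± 0.19, adjusted p = 0.0390). The genes beside it did not pass, and Cyp4p1 differed by -0.39 and Cyp4p3 by 0.57.

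Another P450, Cyp4d21, fell. Its control signal was 10.22, 10.37 and 10.61 and its Foxo signal 9.42, 9.26 and 9.21, without overlap (-1.10 ± 0.14, adjusted p = 0.0478). Over the 82 measured P450 genes, these were the 2 called, 42 were higher and 40 lower, and 15.9% had an unadjusted p under 0.05 against 17.8% of all genes. Cyp6a14 had a comparable size without passing: 5.80, 5.71 and 5.59 in control against 7.24, 7.74 and 6.63 in Foxo (1.5 ± 0.25, adjusted p = 0.116).

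Genes of high signal made up most of the falls, and 8 of the 12 called genes had a mean signal above 8.64, the upper bin of 4 equal ones. The gene lama, which encodes a phospholipase B-like protein, read 11.23, 11.28 and 11.45 in control and 10.37, 10.56 and 10.38 in Foxo (-0.88 ± 0.08, adjusted p = 0.00862). Its 3 Mnt arrays, at 11.15, 11.15 and 11.08, stood just under the controls. CG13794 lies in a run of genes of the neurotransmitter transporter family. It read 9.50, 9.50 and 9.83 in control and 8.59, 8.28 and 8.46 in Foxo (-1.17 ± 0.11, adjusted p = 0.0167). Its neighbours CG13793, CG13795, CG13796 and CG33296 differed by -0.37, -0.29, 0.28 and -0.56 and none passed. CG13793, CG13795 and CG33296 had an unadjusted p under 0.05, a level met by 17.8% of all genes, and CG33296 was without overlap. CG13794 was thus the only called one among these genes, though not the only lower one.

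CG6664 and CG3764 are next to each other on chromosome arm 3L, with 0 genes between, and both fell. CG6664 lay at 9.73, 10.00 and 9.98 in control and at 8.75, 8.87 and 8.73 in Foxo (-1.12 ± 0.12, adjusted p = 0.0344). CG3764 lay at 8.67, 8.74 and 8.77 in control and at 7.99, 7.57 and 7.94 in Foxo (-0.90 ± 0.11, adjusted p = 0.0462). The Mnt arrays of both genes overlapped the controls. The mean of all its probe sets gave CG3764 a difference of -0.48 and ended its call.

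The last falls touched mitochondria, sugar digestion and chaperones, each by less than 0.6 on the log2 scale. CG9399, also named dMPC2 after the mitochondrial pyruvate carrier, fell from 13.08, 13.10 and 13.26 to 12.67, 12.72 and 12.64 (-0.47 ± 0.06, adjusted p = 0.048). CG5569, also named dNDUFAF3 after an assembly factor of respiratory complex I, fell from 10.55, 10.58 and 10.58 to 10.04, 10.15 and 10.06 (-0.49, adjusted p = 0.034). Both differences were small but larger than the spread of 3 tight arrays. The maltase Mal-A5, which splits disaccharides, fell from 12.37, 12.33 and 12.49 to 11.84, 11.87 and 11.97 (-0.50 ± 0.06, adjusted p = 0.039). CG4461, also named Hsp20 as a small heat shock protein, fell from 13.75, 13.77 and 13.91 to 13.18, 13.36 and 13.23 (-0.55 ± 0.07, adjusted p = 0.039).

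The place of the Mnt arrays differed among these falls. For CG5569 and Mal-A5 the Mnt arrays were as low as the Foxo arrays. CG5569 read 10.12, 10.10 and 9.98 in Mnt and Mal-A5 11.90, 11.94 and 11.88, and Foxo minus Mnt was 0.02 and -0.01. Their Mnt differences from control, -0.50 and -0.49, did not pass (adjusted p = 0.160 and 0.167), and the same 3 controls serve both groups. For CG4461 the Mnt arrays lay between Foxo and control, at 13.59, 13.50 and 13.57. For 10 of the 12 genes the Foxo arrays did not overlap the Mnt arrays either. The same share over all genes was not counted, and these genes were picked through the same Foxo arrays, so the count is no added support. The direct comparison of Foxo with Mnt passed for 7 of the 12, in a contrast that called 0.134% of all genes and that shares the Foxo arrays with the one against control.

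**Figure D3:**
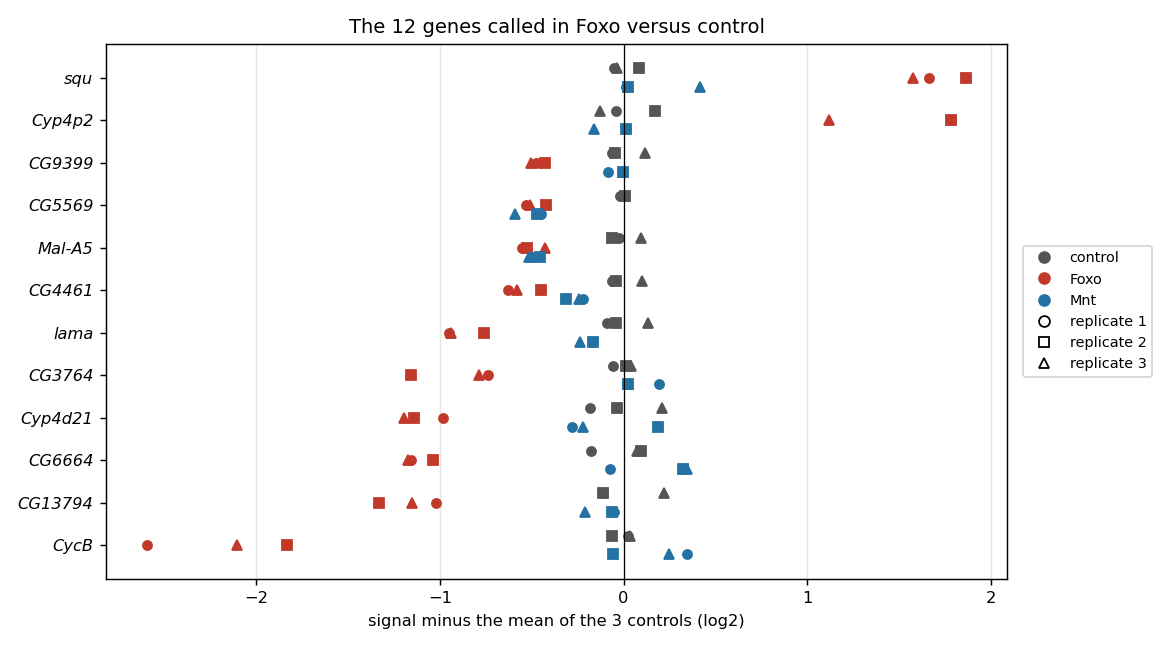
Log2 signal minus the mean of the 3 control arrays for the 12 called genes, with 1 point per array, colours for groups and shapes for replicate numbers. The 3 Foxo arrays stand apart from the 3 control arrays for each gene, and for CG5569 and Mal-A5 the Mnt arrays lie with the Foxo arrays.

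For the 12 called genes the array labelled Foxo 2 lay at between 71% and 157% of the first Foxo array's distance from the control mean. It was in the fit that called them, so this describes the genes and does not check the label. Leaving it out kept 7 of the 12 calls, namely CG13794, CG3764, CG4461, CG5569, CycB, lama and squ. The calls of CG6664, CG9399, Cyp4d21, Cyp4p2 and Mal-A5 ended, with adjusted p from 0.0726 to 0.135. Leaving out the first Foxo array kept the call of CycB alone. Leaving out the third Foxo array kept 6 calls, the first control array 5, and Mnt arrays 1, 2 and 3 kept 4, 5 and 5. Leaving out the second or the third control array ended all 12 calls (adjusted p from 0.0771 to 0.266 and from 0.0552 to 0.222), while every difference kept its direction. The third control array had the lowest testis mean of the 9.

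Just outside the threshold, 12 more genes had an adjusted p from 0.05 to 0.10, of which 10 were lower and 2 higher. The largest was Prx6c, a peroxiredoxin, an enzyme that reduces peroxides. It read 6.46, 6.16 and 6.87 in control, 9.08, 9.70 and 8.31 in Foxo, and 6.25, 6.67 and 6.25 in Mnt (2.53 ± 0.33, adjusted p = 0.0507). Ubi-p63E, a polyubiquitin gene, was the other higher one, at 12.69, 12.68 and 12.56 in control and 13.05, 12.97 and 12.96 in Foxo (0.35 ± 0.05, adjusted p = 0.087). Lower values were found for NimC1, a phagocytosis receptor of haemocytes, at 8.75, 9.02 and 9.29 in control and 8.12, 7.89 and 8.09 in Foxo (-0.99 ± 0.13, adjusted p = 0.0565). ND-B8, a subunit of respiratory complex I, was at 12.66, 12.65 and 12.85 against 11.05, 11.78 and 11.60 (-1.24 ± 0.18, adjusted p = 0.072). Corp, which encodes a companion of reaper, was at 7.55, 7.82 and 8.02 against 6.64, 6.87 and 6.62 (-1.09 ± 0.17, adjusted p = 0.089). Smaller differences belonged to eas, the ethanolamine kinase, at -0.28, and to Urod, of haem synthesis, at -0.34. CG34166, CG9776, CG8891, CG5500 and clumsy differed by -0.67, -0.42, -0.45, -0.51 and -0.44.

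Among bright genes, some larger differences rested on uneven arrays. Noc2, named for a nucleolar complex protein of ribosome assembly, read 9.53, 9.66 and 9.60 in control but 6.88, 6.87 and 9.23 in Foxo, and the third Foxo array lay below the controls but far nearer to them than the others (-1.94 ± 0.55, adjusted p = 0.276). The carboxypeptidase gene CG8560 read 8.27, 8.10 and 6.68 in control and 9.66, 9.36 and 9.12 in Foxo. CG8562, a carboxypeptidase gene with 1 gene between, read 7.76, 7.86 and 6.69 against 8.93, 8.92 and 8.64. Their differences were 1.69 ± 0.43 and 1.39 ± 0.36 (adjusted p = 0.27 and 0.276). The Mnt arrays, at 8.12, 9.20 and 8.57 for CG8560 and at 7.51, 8.69 and 8.24 for CG8562, overlapped both groups.

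Of 18 measured gut enzymes, mostly trypsins and Jonah proteases, 17 were higher, with a median of 0.51 and 0 called. Of these 18, 16.7% had an unadjusted p under 0.05, no more than the 17.8% of all genes. Their mean signal was 9.64, 8.98 and 8.58 in control and 9.70, 9.78 and 9.56 in Foxo, so that the first control array overlapped. Of 10 measured maltases 8 were higher, all but Mal-A5 and Mal-B1, with a median of 0.71 that lay between 0.37 and 1.26 when 1 array was left out. Mal-A6, directly beside Mal-A5, read 9.79, 10.28 and 9.82 in control and 10.84, 12.01 and 10.85 in Foxo (1.27 ± 0.36, adjusted p = 0.276). On the other side Mal-A4 differed by 2.19 ± 0.75, with control arrays from 5.32 to 7.39. Whether gut tissue in the samples differed was not tested, and in such bulk samples fewer cells of a type and less RNA per cell cannot be told apart.

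Of 18 measured genes of insulin and TOR signalling, 0 were called, 12 were higher and 6 lower. At an unadjusted p under 0.05, 4 were higher, foxo itself included, and 1 lower, which together are 27.8% against 17.8% of all genes. Sesn, the sestrin that restrains TOR, read 9.74, 9.72 and 9.86 in control and 10.41, 10.01 and 10.12 in Foxo (0.40 ± 0.11, adjusted p = 0.276). Akt, the kinase that phosphorylates Foxo, read 10.07, 9.99 and 9.90 against 10.36, 10.20 and 10.55 (0.38 ± 0.10, adjusted p = 0.27). Neither overlapped, and S6k, the kinase downstream of TOR, had a smaller value of 0.21 ± 0.06. The median of the list was 0.07, and -0.03 with centred arrays.

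Genes described as Foxo targets in flies gave no common direction, with 3 of 8 measured members higher, 5 lower and 0 called. Sesn, also on this list, was higher (0.40 ± 0.11, adjusted p = 0.276). It was the only member without overlap, or 12.5% of the list against 23.6% of all genes. The insulin receptor InR differed by 0.25, the lipases bmm and Lip4 by -0.03 and -0.07, and Pepck1, of gluconeogenesis, by -0.39. The glucosidase tobi, at 10.58, 11.24 and 10.94 in control and 10.88, 12.08 and 11.41 in Foxo, overlapped between groups. The activin-like ligand daw was at 9.75, 8.93 and 9.54 against 8.83, 8.81 and 9.0 (-0.53 ± 0.21, adjusted p = 0.276), with overlap through the second control array.

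Of 22 measured secreted factors 19 were lower, where 62.6% of all genes were, with a median of -0.15 and 0 called. An unadjusted p under 0.05 was met by 5 lower members and 1 higher one, 27.3% against 17.8% of all genes. ImpL2, a secreted protein that binds insulin-like peptides, came nearest to the threshold. It read 11.12, 10.74 and 10.88 in control and 10.13, 10.03 and 10.36 in Foxo, without overlap, and 10.90, 10.71 and 10.68 in Mnt (-0.74 ± 0.12, adjusted p = 0.116). TotC, a stress-induced humoral factor, differed by -1.15 ± 0.38 with overlapping arrays. The myostatin homologue myo was dim and differed by -0.11.

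Of 22 measured genes of Toll and Imd recognition and signalling, 17 were lower, against 62.6% of all genes, with a median of -0.11. An unadjusted p under 0.05 was met by 5 lower and 0 higher members, or 22.7% against 17.8%. The NF-kappaB factor dl read 10.24, 10.25 and 10.19 in control and 9.62, 9.65 and 9.92 in Foxo (-0.50 ± 0.10, adjusted p = 0.196). Haemocyte markers lay lower beside it: 11 of 13 measured were lower and 5 were without overlap, 38.5% against 23.6% of all genes. Their mean was 7.49, 7.54 and 7.77 in control and 7.30, 7.35 and 7.39 in Foxo. Hml, the haemolectin made by most haemocytes, differed by only -0.14 ± 0.07. The part of haemocyte number in these values was not tested. Antimicrobial peptide genes had 4 of 6 measured members higher and a median of 0.25, but 0 were called and 0 had an unadjusted p under 0.05. That median lay between -0.13 and 0.34 when 1 array was left out, so its direction was not settled.

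**Figure D4:**
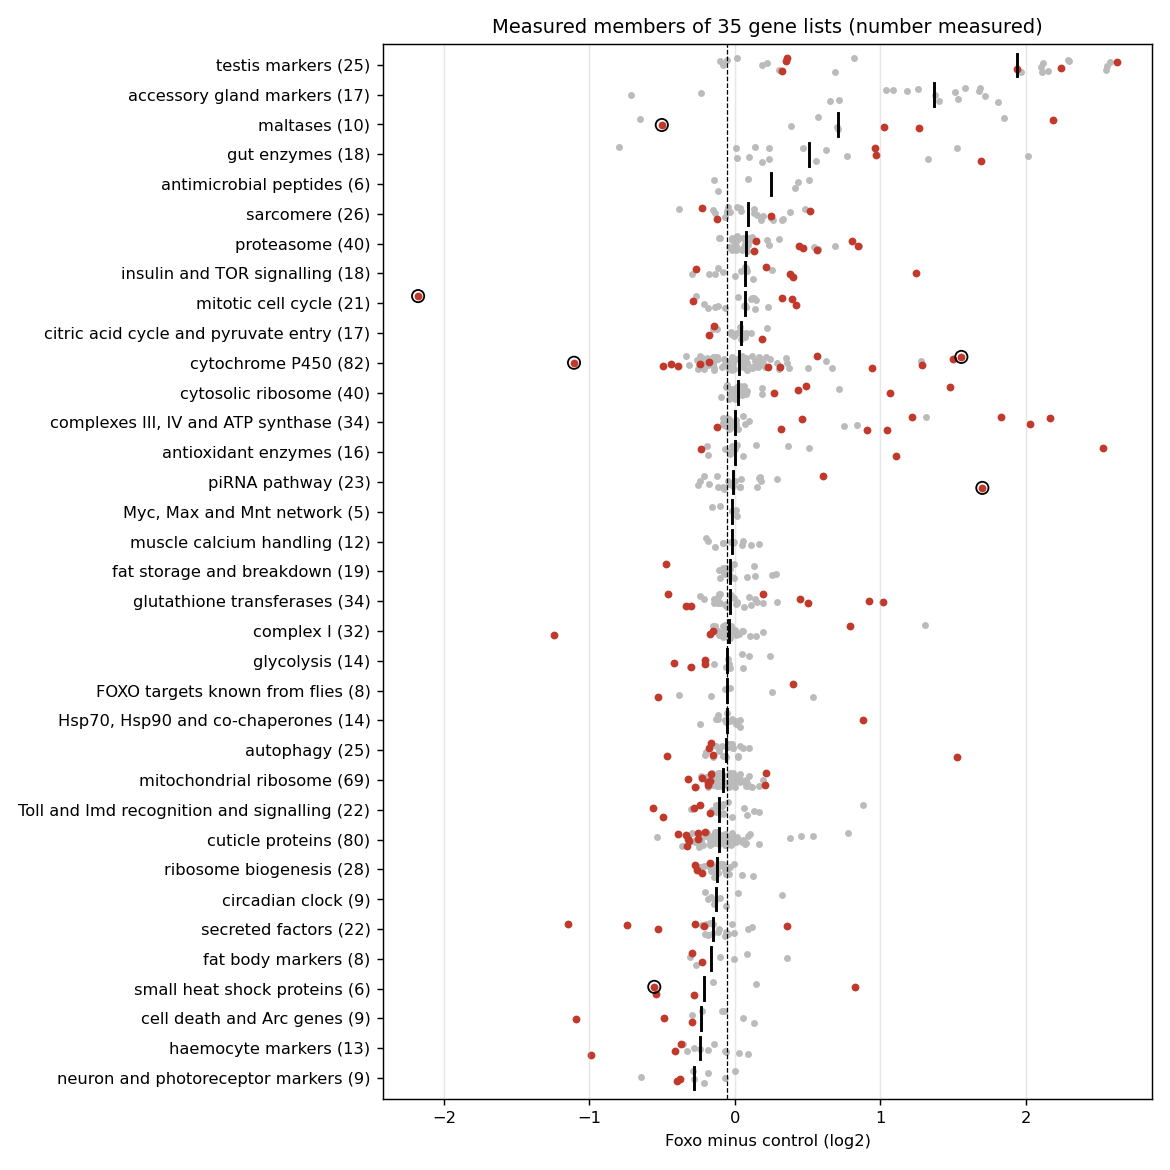
Log2 differences between Foxo and control for the measured members of each gene list, with points for genes, in red at an unadjusted p under 0.05 and ringed if called, bars for list medians and a dashed line for the median of all genes. Testis and accessory gland markers and maltases have the highest medians, and neuron and photoreceptor markers the lowest at -0.28.

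No sarcomere gene was called among 26 measured, 16 were higher and 10 lower, and the median of 0.09 turned to -0.02 with centred arrays. Strn-Mlck, which encodes a muscle myosin light chain kinase-like protein, read 12.27, 12.20 and 12.33 in control and 13.05, 12.70 and 12.61 in Foxo (0.52 ± 0.11, adjusted p = 0.196), and its Mnt arrays were as high at 12.68, 12.80 and 12.69. In glycolysis 10 of 14 measured genes were lower. Of these, 4 had an unadjusted p under 0.05, or 28.6% of the list against 17.8% of all genes. Pgi, the second enzyme of the pathway, read 13.20, 13.25 and 13.45 against 12.91, 12.89 and 12.84 (-0.42 ± 0.08, adjusted p = 0.169). Pgk, which makes ATP later in the pathway, read 12.99, 13.12 and 13.29 against 12.90, 12.80 and 12.79 (-0.30 ± 0.09, adjusted p = 0.276).

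In complexes III, IV and ATP synthase, 8 of 34 measured genes were higher at an unadjusted p under 0.05, and all 8 of these are low-signal genes whose symbols end in L or AL2, among them COX4L at 2.17 and COX7AL at 2.03. Their correlations with the testis mean within groups were 0.958 and 0.992. ATPsynbetaL, another such gene, differed by 0.10. The bright counterparts COX4 and ATPsynbeta differed by -0.03 and 0.07. Complex I had 22 of 32 members lower, near the share of all genes, with a median of -0.04. Its lowest member was ND-B8, and its highest were the dim ND-B14.5AL at 1.31 and ND-24L at 0.80, with testis correlations of 0.961 and 0.765. For the other subunit of the pyruvate carrier, Mpc1, the difference was -0.15 beside the called fall of CG9399.

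Of 40 measured proteasome genes, 32 were higher, 0 were called and 7 had an unadjusted p under 0.05 (median 0.08, or -0.03 with centred arrays). Those 7 are 17.5% of the list, no more than the 17.8% of all genes. Of those 7, 5 were dim variant subunits with symbols that end in R, R1 or R2, such as Rpt3R at 0.81 and Rpn12R at 0.85, with testis correlations within groups of 0.687 and 0.889. The other 2, the bright subunits Rpn13 and Rpt3, differed by 0.13 and 0.15. Autophagy genes had 19 of 25 members lower and 0 called, Atg8a at -0.03 and Atg18b at -0.46, while Atg8b, a dim Atg8 paralog, lay at 1.53 with a testis correlation of 0.979. The part of testis RNA in the dim variants was not tested.

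Small heat shock proteins held the highest share at an unadjusted p under 0.05 among the stress lists, 4 of 6. This was 66.7% of a short list, against 17.8% of all genes. Besides the called CG4461, Hsp26, directly next to it, read 9.30, 9.22 and 9.68 in control and 8.73, 8.77 and 9.08 in Foxo (-0.54 ± 0.14, adjusted p = 0.27). Hsp27 went the other way, at 6.06, 6.04 and 5.85 against 6.18, 7.02 and 7.22 (0.82 ± 0.30). Of 14 measured Hsp70, Hsp90 and co-chaperone genes, 1 had an unadjusted p under 0.05. Glutathione transferases, which detoxify reactive compounds, had 8 of 34 members at that level, 5 higher and 3 lower, or 23.5% against 17.8%. GstS1, an abundant one, read 11.95, 12.31 and 12.21 against 13.52, 12.72 and 13.01 (0.92 ± 0.25, adjusted p = 0.276).

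Ribosome biogenesis genes were lower in 26 of 28 cases, where 62.6% of all genes were lower, with a median of -0.12 against -0.06. The list was as low in Mnt, with a median difference from control of -0.13. All 11 members without overlap between Foxo and control were lower, or 39.3% of the list against 15.4% of all genes. The sizes were small, as for the nucleolar methyltransferase Fib at -0.17 ± 0.06 and for wcd, a pre-rRNA processing factor, at -0.26 ± 0.11, and 0 were called. The median for 40 cytosolic ribosomal proteins was 0.02, and -0.08 with centred arrays. For 69 mitochondrial ribosomal proteins it was -0.08.

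The strength of the comparison varied with how a gene followed testis signal. Genes were binned by their correlation with the testis mean after group means were removed, over 9 arrays. In the bin above 0.7, with 1165 genes, 47.1% had an unadjusted p under 0.05 and the median difference was 0.93. In the bin from -0.3 to 0.3, with 3914 genes, 14.9% did, 177 genes were higher and 634 lower without overlap, and 3 of the called genes fell there. The bins at or below -0.7, from -0.7 to -0.3 and from 0.3 to 0.7 held 2, 5 and 2 called genes, and the 2 lowest correlations were those of Cyp4d21 and CG13794 at -0.914 and -0.751. Without removal of the group means, which uses the contrast itself, 3454 genes lay between -0.3 and 0.3, and 4.02% of these had an unadjusted p under 0.05 with 0 called. With the testis mean as a covariate, 7 genes passed, of which 5 were among the 12, namely CycB, squ, lama, CG13794 and Cyp4d21. CG6664 and Cyp4p2 lost their calls (adjusted p = 0.136) with differences of -1.06 and 1.59. CG3764, CG4461, CG5569, Mal-A5 and CG9399 lost theirs with an adjusted p from 0.194 to 0.242 and differences from -0.83 to -0.42. In the same fit the median of the testis markers went from 1.94 to 0.03. The covariate is the mean of these same markers, so that fall is built into the fit and checks nothing.

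**Figure D5:**
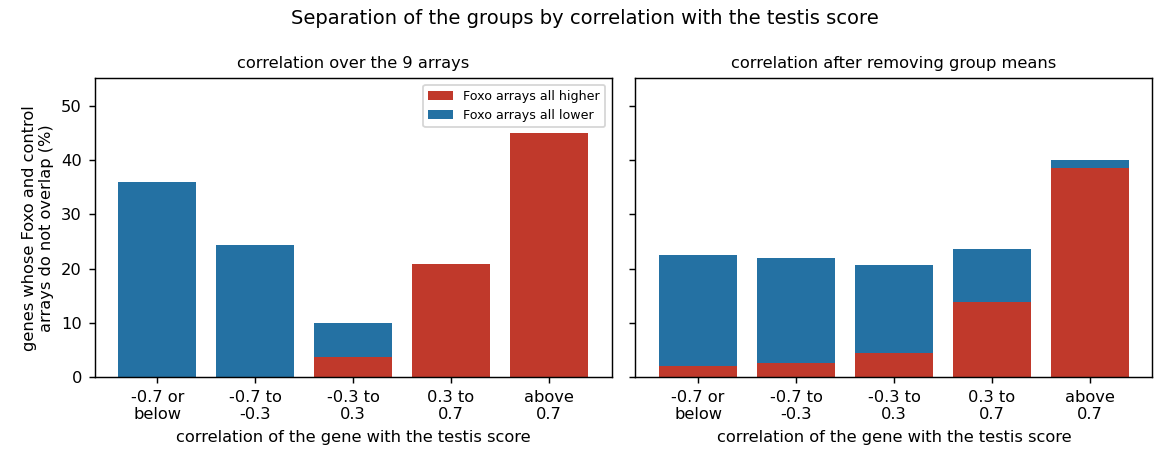
Share of genes, in percent, whose Foxo and control arrays do not overlap, by bins of the correlation with the testis mean over 9 arrays (left) and after group means were removed (right), split into genes higher and lower in Foxo. Above 0.7 nearly all such genes are higher, and within groups 634 of the genes from -0.3 to 0.3 are lower and 177 higher.

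By position, the 12 called genes lay on arms 2L, 2R, 3L and 3R, with 3, 4, 4 and 1 genes, and 0 lay on the X chromosome, which holds 15.6% of the genes tested.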

How the data were processed

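The deposited table holds log2 signals of 18952 probe sets on 9 single-colour arrays. The deposited log2 values came from RMA, per the submitters' processing notes, and no version is given there. RMA equalises the distributions of the arrays, so a change shared by most transcripts is not visible. Left out were 183 control probe sets, 402 with several genes and 4720 without a gene name. Of the 13647 with 1 gene, 13544 matched RefSeq by Entrez identifier. The remaining 11982 genes were tested with limma 3.58.1 in R 4.3.3 (lmFit, eBayes with an intensity trend), with all 9 arrays in 1 fit, 6 residual degrees of freedom and two-sided p-values adjusted by Benjamini-Hochberg over all genes. Every adjusted p is from this test, every ± is its moderated SE, and 3 arrays per group limit the precision. The method was tested on simulated data.

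The comparison and the 35 gene lists, 831 of whose 1043 entries were measured, were chosen with earlier results of these data known. Lists are described by counts and medians without a test. Named were foxo, Mnt (difference 0.01), all genes with an adjusted p under 0.10, the largest differences at a mean signal of at least 7, and the extreme members of each list. Others were named after their values were seen. Alternatives covered the normalization, filters, probe sets, covariates and each array left out. A motif count in promoters was planned and not run, since no promoter sequence was used here.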

Additional observations from a re-analysis of the deposited data

Results flagged for a closer look

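For 12 of the genes named, the direct limma test of Foxo against Mnt passed an adjusted p of 0.05, so their levels differed between both overexpression groups. Foxo arrays were lower than Mnt arrays for CycB (-2.352), Arc2 (-1.342), CG6664 (-1.321), Corp (-1.306), NimC1 (-1.065), CG13794 (-1.059), CG3764 (-0.973), lama (-0.689) and CG5500 (-0.608), and higher for Prx6c (2.635), Cyp4p2 (1.603) and squ (1.549), all log2 differences.

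Arc2, which encodes a capsid-like protein related to Arc1, was the one among them whose gap opened on both sides of the controls. It read 7.78, 8.18 and 8.01 in control, 7.41, 7.33 and 7.77 in Foxo and 8.85, 8.64 and 9.04 in Mnt. All Foxo arrays lay below and all Mnt arrays above the controls. Against control, neither the Foxo difference of -0.49 (adjusted p = 0.276) nor the Mnt difference of 0.85 (adjusted p = 0.549) passed. The Foxo arrays enter the contrast with Mnt as well as that with control. For the other 11 the Foxo arrays carried most of the gap.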

How the results depend on the processing

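Foxo versus control called 12 genes and Foxo versus Mnt 16. In each setting run, the differences against control kept their direction for every one of the 12 genes that had a value there. Without probe sets shared between transcripts 8 of the 12 had a value, and without the dimmest 40% of genes 11 did. All 12 had a value in the other settings. Calls against control numbered 4 without the intensity trend, 28 with centred arrays, 2 without probe sets shared between transcripts, 3 at an adjusted p under 0.01, 24 under 0.10, 7 with the testis mean as covariate and 0 with the 6 Foxo and control arrays alone (2177 at an unadjusted p under 0.05). In the same order, calls against Mnt numbered 5, 31, 13, 0, 31 and 6, and the 6 arrays alone do not apply. The centring there was on the median of the genes tested. Centring on the median of all probe sets, a setting chosen after seeing the data, gave 8 calls against control and 18 against Mnt. Leaving out 1 array gave 0 to 13 calls against control, with 0 without the second or the third control array (1059 and 866 at an unadjusted p under 0.05), and 0 to 14 against Mnt.

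Same-numbered control and Foxo arrays deviated from their group means with correlations of -0.46, 0.03 and -0.06, without a clear positive value. The deviations are taken from means of few arrays and carry the uneven testis signal. They therefore cannot decide whether same-numbered arrays were prepared together, which was not tested. With a replicate block 0 genes passed against control (1425 at an unadjusted p under 0.05) and 1 against Mnt.

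Settings chosen after seeing the data gave, against control and Mnt in turn, 3 and 5 calls with testis and accessory gland means as covariates, 0 and 0 when the pair of arrays with the lowest testis mean was dropped (909 at an unadjusted p under 0.05 against control), and 5 and 6 with the first Foxo array alone in its group. In that last setting the foxo difference was 2.63, and the lone array is assumed to vary like the other groups. The cause of these movements was not tested. Signal over background is not known from these values, and dim genes such as squ are least certain.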

Other observations

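Of 80 measured cuticle proteins, 66 were lower and 14 higher, where 62.6% of all genes were lower, with a median of -0.11 and 0 called. Of 9 neuron and photoreceptor markers 8 were lower, with a median of -0.28. Of 8 fat body markers 6 were lower, among them Apoltp, a lipid transfer protein, at -0.29. Circadian clock genes had 7 of 9 members lower and 0 at an unadjusted p under 0.05.

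The gene with the largest difference of all, CG18628, did not pass. It read 13.35, 5.63 and 6.86 in control and 13.18, 13.82 and 9.99 in Foxo, a difference of 3.71 with an adjusted p of 0.438, and the groups overlapped through the first control array.

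With every probe set tested in 1 fit, 14 of 13647 probe sets with a single gene were called, 3 risen and 11 fallen. Of 5122 probe sets with several genes or none named, 5 were called, 3 risen and 2 fallen, and they are left unnamed.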
